A study of Mus musculus with 24 samples.

Results

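The 8 genes described here encode the mouse SUN proteins and nesprins, and were taken by their symbols from the 24456 genes counted in each library. They were *Sun1*, *Sun2*, *Sun3*, *Sun5* and *Spag4* on the SUN side, and *Syne1*, *Syne2* and *Syne3* on the nesprin side. All 8 passed the filter on low counts that left 17170 genes for testing. RNA labelled as testis from wild-type (WT) mice and mice lacking functional *Atad2* (KO) was sequenced at postnatal days 20, 22, 24 and 26, with 4 libraries per genotype on days 20 and 22 and 2 per genotype on days 24 and 26. The study asked how gene activity changes without ATAD2, a nuclear ATPase whose bromodomain binds acetylated histones, while the first wave of spermatids forms. The KO allele joins the early exons of *Atad2* to a *lacZ* reporter, and a ubiquitously active CMV-Cre had removed the selection cassette together with an exon, so that the allele was present in every cell type of the testis and not in germ cells alone. The strain was not given in the sources used here. The labels do not say that each library came from a separate animal, and p-values therefore measure the spread between libraries.

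SUN proteins sit in the inner nuclear membrane and nesprins in the outer one. They bind each other in the space between the membranes and form the LINC complex, a bridge that connects the lamina and the chromosomes inside the nucleus with the cytoskeleton outside it. In meiotic prophase the bridge holds telomeres at the envelope and moves chromosomes so that homologues can pair. In spermatids, testis-specific SUN proteins connect the nucleus with the manchette, a transient skirt of microtubules that shapes the head, and with the coupling apparatus that fastens the tail to the head. SUN1 and SUN2 are found in most tissues, and SUN1 is the main SUN protein at meiotic telomeres. SUN3, SPAG4 (also called SUN4) and SUN5 are made in spermatids: SUN3 and SPAG4 lie along the manchette, and SUN5 at the tail attachment site. Nesprin-1 and nesprin-2, from *Syne1* and *Syne2*, are giant proteins whose long forms bind actin, and nesprin-3, from *Syne3*, reaches intermediate filaments through plectin.

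In the GENCODE M21 annotation of GRCm38 the genes lie on 6 chromosomes, and all are protein coding. *Sun1* spans chr5:139200637-139249840 on the plus strand, *Sun2* chr15:79724070-79742536 on the minus strand, *Sun3* chr11:9016054-9048991 on the minus strand, *Sun5* chr2:153856188-153871084 on the minus strand and *Spag4* chr2:156065175-156070617 on the plus strand. *Syne1* spans chr10:5020917-5551482 on the minus strand, *Syne2* chr12:75818134-76110926 on the plus strand and *Syne3* chr12:104929933-105009809 on the minus strand. The longest annotated transcript has 146 exons for *Syne1* and 115 for *Syne2*, against 12 for *Sun5* and 9 for *Sun3*. *Gm11992* lies on the opposite strand and shares 123 exon bases with *Sun3*, and the counts were made with the strand taken into account.

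*Sun3*, *Sun5* and *Spag4* are the members whose transcripts accumulated together, and for that reason the sequence before their start sites is printed here, 5′ to 3′ on the strand of the gene, from the RefSeq promoter windows of GRCm38.p6. A window holds 250 bases before and 50 bases after a start site, and windows were found for 8 of the 8 members, 12 in all. Capitals mark matches to the motifs searched on both strands, which were TGACGT, the core of the cAMP response element, GTTGCC, a motif of RFX factors, and CAGTTG, a MYB site. The *Spag4* stretch covers chr2:156064963-156065183 and ends with its last motif base, because 1 GENCODE transcript already starts 9 bases before that end. The *Sun5* stretch covers chr2:153871085-153871334, and the *Sun3* stretch covers chr11:9039592-9039841, before the inner of its RefSeq start sites. The outer *Sun3* site, at chr11:9048991, is the annotated start of the gene. Its window is not printed, because windows under an exon of another gene were left out.
*Spag4*: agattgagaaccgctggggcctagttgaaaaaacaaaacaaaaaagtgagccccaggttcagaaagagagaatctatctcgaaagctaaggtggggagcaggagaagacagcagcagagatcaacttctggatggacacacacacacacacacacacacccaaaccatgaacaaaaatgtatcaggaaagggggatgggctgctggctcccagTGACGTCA
*Sun5*: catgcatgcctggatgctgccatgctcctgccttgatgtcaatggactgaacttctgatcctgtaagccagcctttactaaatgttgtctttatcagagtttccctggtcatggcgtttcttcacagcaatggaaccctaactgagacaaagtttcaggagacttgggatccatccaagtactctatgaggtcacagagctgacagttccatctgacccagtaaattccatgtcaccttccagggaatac
*Sun3*: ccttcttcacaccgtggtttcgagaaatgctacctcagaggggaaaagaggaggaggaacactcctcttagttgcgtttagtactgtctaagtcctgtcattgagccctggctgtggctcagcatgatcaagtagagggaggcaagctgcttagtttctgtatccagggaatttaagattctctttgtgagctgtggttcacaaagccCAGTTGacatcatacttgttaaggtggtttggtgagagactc
TGACGT was found in the *Spag4* window on the plus strand from 37 bases before the start site and on the minus strand from 35 bases before it, and the overlapping matches together form an 8-base palindrome. TGACGT is held by 7.51% of the 32851 promoter windows of this length. In the inner *Sun3* window CAGTTG begins 42 bases before the start site, while the outer *Sun3* window held none of the 3 motifs, and a *Syne1* window has it on the minus strand from 224 bases before the start site, while 13.7% of all windows hold it. GTTGCC, found in 12.5% of all windows, was in none of the 12, and the *Sun5* window held none of the 3 motifs, which says only that these letters are not in it.

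Between 10709667 and 19491935 read pairs fell in genes in each library. Levels are given in CPM, the usual per-library count unit, computed on TMM-scaled library totals. *Atad2* stood at 30.8 to 53.0 CPM in the KO libraries and at 76.1 to 171 CPM in the WT libraries, without overlap at any day, and its log2 fold change ran from -1.67 at day 20 to -1.12 at day 22. The highest WT value was in the second WT library of day 20. At day 26, with 2 libraries per genotype, the difference of -1.25 did not pass the edgeR test (adjusted p = 0.0628). The count of a gene includes the exons that the allele keeps. WT_d20_2, the second WT library of day 20, stood apart, since pairs with several alignments made up 13.7% of its table and 4.74 to 9.16% of the other 23. Among the members that library held the lowest *Sun1* and *Sun2* and the highest *Syne1* and *Syne2* values of all 24 libraries. Members' results that use day 20 are therefore also given without it wherever a call or a sign changed.

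The members divided by their course over the days, and the same genes moved in both genotypes (edgeR quasi-likelihood test across all genes, called at a Benjamini-Hochberg adjusted p under 0.05). From day 20 to day 26, *Sun3*, *Sun5* and *Spag4* rose and *Syne1* and *Syne2* fell in WT and in KO, while *Sun1*, *Sun2* and *Syne3* did not pass the test in either. In WT, 3 of the 8 members were called higher, against 24.4% of all genes tested, and 2 were called lower, against 18.1%, or 5 in either direction against 42.5%. In KO the background was 27.2% higher, 24.9% lower and 52.2% in either direction, for the same counts of 3 and 2. Without WT_d20_2 the 5 WT calls held, with log2 fold changes of 2.50 for *Sun3*, 7.82 for *Sun5*, 5.32 for *Spag4*, -0.67 for *Syne1* and -0.34 for *Syne2*. With the round spermatid score as a covariate none of the 5 passed in WT, where *Sun3* was at 1.92, *Sun5* at -0.13, *Spag4* at 1.003, *Syne1* at -0.93 and *Syne2* at -0.32 (adjusted p from 0.628 to 0.982), while in KO *Sun3* and *Spag4* still passed (adjusted p = 0.0449 and 0.0498). That fit called 0 of 17170 genes over age in WT and 279 in KO, so the WT losses say nothing particular to these members. The plot of the members by day shows each library.

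**Figure D1:**
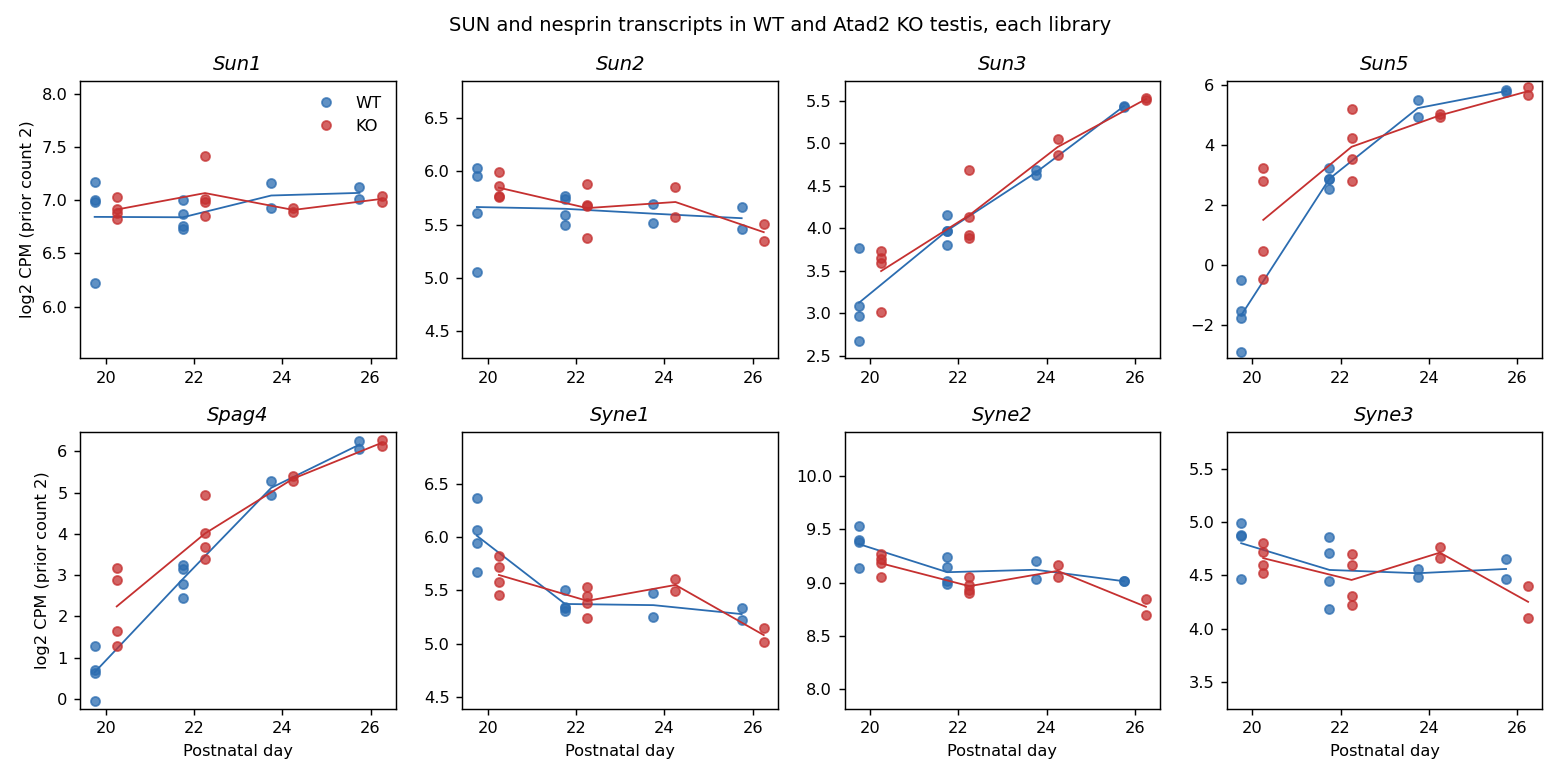
Level of each SUN and nesprin transcript (log2 CPM with a prior count of 2, own vertical range in each panel) against postnatal day, with 1 point per library, WT in blue and KO in red set slightly apart, and lines through the group means. *Sun3*, *Sun5* and *Spag4* climb over the days, *Syne1* and *Syne2* decline from day 20, and KO means lie above WT means for *Sun5* and *Spag4* at days 20 and 22.

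*Sun5*, which encodes the SUN protein of the head-tail coupling apparatus, had the steepest course. In WT testes it stood at 0.157, 0.211, 0 and 0.576 CPM at day 20, from 2, 2, 0 and 8 counts. It reached 9.30, 7.11, 7.16 and 5.63 CPM at day 22, 45.3 and 30.7 CPM at day 24, and 53.8 and 57.1 CPM at day 26. The WT groups of days 20, 22 and 24 therefore do not overlap with each other. The mean at day 20 was 0.426% of that at day 26, at day 22 it was 13.2%, and at day 24 it was 68.5%. Between days 20 and 26 it rose by 7.88 ± 0.91 (SE, adjusted p = 1.24e-06) on the log2 scale. In KO it was 3.63 ± 0.66 (adjusted p = 0.000202), and *Sun5* was already at 8.03% of its day-26 mean at day 20. With a library left out the WT value ranged from 7.33 to 8.94, the highest without the fourth WT library of day 20, which holds 8 of the 12 WT counts, and the KO value ranged from 3.26 to 4.27.

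*Spag4*, the manchette SUN gene also known as *Sun4*, followed closely. WT libraries held 1.42, 0.842, 1.50 and 2.30 CPM at day 20 and 8.66, 5.35, 9.38 and 6.80 CPM at day 22. They then held 38.7 and 30.8 CPM at day 24 and 76.5 and 66.9 CPM at day 26. Each day's WT libraries lay above all those of the day before it. The WT mean at day 22 was 10.5% and that at day 24 was 48.4% of the day-26 mean, so that *Spag4* stood lower relative to its day-26 level than *Sun5* did at both days. Its log2 fold change from day 20 to day 26 was 5.52 ± 0.46 (adjusted p = 6.39e-08) in WT and 3.78 ± 0.41 (adjusted p = 1.51e-06) in KO.

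*Sun3*, whose product also lies along the manchette, was present earlier and climbed less. At day 20 the WT libraries held 7.70, 13.5, 6.24 and 8.35 CPM, of which the highest was WT_d20_2. At day 22 they held 17.7, 15.6, 15.5 and 13.8 CPM, at day 24 25.6 and 24.5 CPM, and at day 26 43.0 and 43.2 CPM. At day 20 *Sun3* was thus already at 20.8% of its day-26 mean in WT. The log2 fold change to day 26 was 2.28 ± 0.24 (adjusted p = 2.18e-07) in WT and 2.01 ± 0.23 (adjusted p = 1.65e-06) in KO.

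*Sun1*, the main SUN gene of meiotic telomeres, stayed within a narrow band. Its group means lay between 115 and 135 CPM, and the change from day 20 to day 26 was 0.18 ± 0.18 on the log2 scale in WT (adjusted p = 0.438). The lowest library was WT_d20_2 at 74.6 CPM, and the highest was the fourth KO library of day 22 at 170.3 CPM. Without WT_d20_2 the *Sun1* change in WT was -0.0246 (adjusted p = 0.895). *Sun2*, its broadly expressed relative, had group means from 43.0 to 57.5 CPM. Its change to day 26 was -0.15 ± 0.19 in WT (adjusted p = 0.547) and -0.42 ± 0.19 in KO (adjusted p = 0.0759). Without WT_d20_2 the WT value was -0.36 (adjusted p = 0.0555), and the KO value was still -0.42 with an adjusted p of 0.0167.

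*Syne1*, which encodes nesprin-1, was lower in WT from day 22 on. The WT libraries held 67.1, 82.5, 50.9 and 61.3 CPM at day 20 and 45.2, 40.2, 40.6 and 39.5 CPM at day 22, with no overlap. Day 24 gave 37.9 and 44.4 CPM, and day 26 gave 37.3 and 40.2 CPM, close to the day-22 values. From day 20 to day 26 the log2 fold change was -0.76 ± 0.15 in WT (adjusted p = 0.000496) and -0.57 ± 0.15 in KO (adjusted p = 0.00421). *Syne2*, which encodes nesprin-2, was the member with the most counts, at 561 to 741 CPM in the WT libraries of day 20 and 517 and 515 CPM in those of day 26. Its log2 fold change was -0.36 ± 0.12 in WT (adjusted p = 0.0218) and -0.41 ± 0.12 in KO (adjusted p = 0.00792). The *Syne2* call in WT was lost without either WT library of day 26 (adjusted p = 0.0951 and 0.115), and both nesprin calls in KO were lost without the second KO library of day 26 (adjusted p = 0.0552 for *Syne1* and 0.0921 for *Syne2*). *Syne3*, which encodes nesprin-3, had group means from 19.0 to 28.0 CPM and changed by -0.25 ± 0.18 in WT (adjusted p = 0.271) and -0.41 ± 0.18 in KO (adjusted p = 0.0668). Without WT_d20_2 the *Syne3* value in WT was -0.40 (adjusted p = 0.0659). Markers of spermatogonia (5 of 7), Sertoli cells (4 of 8) and peritubular cells (3 of 5) were also called lower at day 26 in WT, with medians of -0.74, -0.56 and -0.91 on the log2 scale. In KO the counts were 5, 6 and 4, with medians of -0.63, -0.66 and -0.93. Early meiosis markers were lower for 3 of 8 in WT and 4 of 8 in KO, while Leydig markers were higher for 6 of 6 in WT (median 2.003) and 2 of 6 in KO. Endothelial markers were lower for 2 of 5 in each genotype and higher for 1 in WT, and 0 of 6 macrophage markers were called. Pachytene markers were higher for 6 of 8, and round and elongating spermatid markers for 8 of 8, in each genotype. Of all genes, 18.1% were called lower in WT and 24.9% in KO. The part of these cells in the nesprin falls was not tested. The KO value of *Syne3* passed without WT_d20_2 (-0.41, adjusted p = 0.038) and with the replicate number as a block (-0.41, adjusted p = 0.0222).

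Compared per kilobase of annotated exon, the order of the genes turned over between day 20 and day 26. In WT at day 20 the mean level was 24.7 ± 2.78 CPM per kb for *Syne2* (SD, n = 4), followed by *Sun1* at 15.6 ± 3.97, *Sun2* at 9.65 ± 2.7, *Sun3* at 6.89 ± 2.42 and *Syne3* at 5.05 ± 0.755 CPM per kb. *Syne1* at 1.62 ± 0.325, *Spag4* at 0.314 ± 0.125 and *Sun5* at 0.192 ± 0.198 CPM per kb were lowest. The neighbours *Sun1* and *Sun2*, *Sun2* and *Sun3*, *Sun3* and *Syne3*, and *Spag4* and *Sun5* did not differ in this order by more than their SDs. At day 26 *Sun5* led with 45.0 ± 1.92 CPM per kb (SD, n = 2), and *Sun3* came next with 33.2 ± 0.112. *Syne2* at 19.3 ± 0.0475, *Sun1* at 17.7 ± 0.979 and *Spag4* at 14.8 ± 1.41 CPM per kb stood in the middle. *Sun2* at 8.70 ± 0.864, *Syne3* at 4.24 ± 0.399 and *Syne1* at 0.956 ± 0.0511 CPM per kb closed the list, and no neighbours in this order overlapped within their SDs. In KO at day 26 *Sun5* stood at 45.1 ± 6.13 and *Sun3* at 35.2 ± 0.414 CPM per kb. Divided by the longest annotated transcript instead of all exons, *Sun1* (32.5 CPM per kb) stood above *Syne2* (23.8 CPM per kb) in WT at day 26, while *Sun5* and *Sun3* remained at the top. Which isoforms of these genes were made was not measured.

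**Figure D2:**
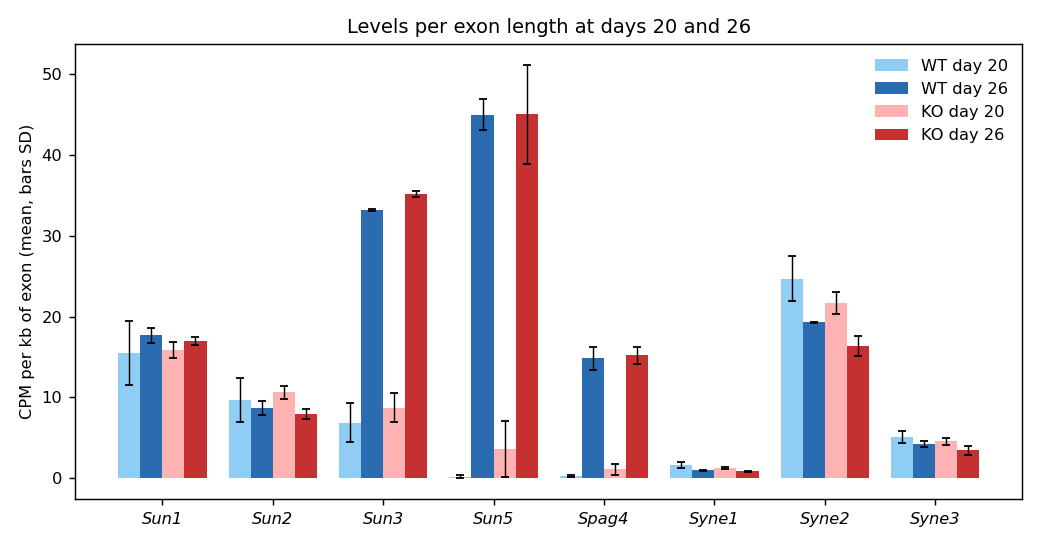
Mean level of each member in CPM per kb of annotated exon at days 20 and 26 (bars, with SD over 4 libraries at day 20 and 2 at day 26) in WT (blues) and KO (reds). *Sun5* goes from 0.192 to 45.0 CPM per kb in WT and *Sun3* from 6.89 to 33.2, while *Syne2* goes from 24.7 to 19.3 and *Syne1* from 1.62 to 0.956.

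At day 20, KO testes held more *Sun5* and *Spag4* RNA than WT testes. These were 2 of the 8 members called higher in KO, against 2.98% of all genes tested, and no member was called lower, against 0.361%, so that 2 changed against 3.34%. DESeq2 also called 2, against 4.92% of its genes. A fit of day 20 alone called 0 members: *Sun5* fell under its filter on low counts, and *Spag4* stood at 1.79 (adjusted p = 0.198). That fit called 5 of 15265 genes, 0 of them higher in KO. The 4 KO libraries held 1.23, 0.589, 6.74 and 9.28 CPM of *Sun5*, from 17, 9, 102 and 137 counts, and the WT libraries held the 0.157, 0.211, 0 and 0.576 CPM given above. All KO libraries lay above all WT libraries, as was so for 3.03% of genes at this day, while 1.68% had all KO libraries lower, but the first and second KO libraries lay far below the third and the fourth. The fitted difference was 4.25 ± 0.94 on the log2 scale (SE, adjusted p = 0.0162), or 19.1-fold, and its 95% interval on the log2 scale ran from 2.30 to 6.21. It rests on 12 counts in all WT libraries together.

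For *Spag4* the KO libraries held 2.97, 2.29, 7.27 and 8.87 CPM at day 20. In this gene 3 of the 4 KO libraries lay above every WT library, and the second KO library lay just under the highest WT library. The difference was 1.78 ± 0.43 on the log2 scale (adjusted p = 0.0244), or 3.44-fold. Both calls depend on single libraries. Without the third KO library the adjusted p was 0.0531 for *Sun5* and 0.0902 for *Spag4*, and without the fourth it was 0.0734 and 0.121. Without WT_d20_2 the log2 fold changes were 4.23 (adjusted p = 0.0636) and 1.61 (adjusted p = 0.0956). Without the first or the third WT library the adjusted p was 0.0577 and 0.0823 for *Sun5* and 0.0778 and 0.0916 for *Spag4*, so that each call held in 19 of the 24 fits with a library left out. The direction was the same in all 24, with *Sun5* from 3.62 (without the fourth KO library) to 5.36 (without the fourth WT library) and *Spag4* from 1.43 to 2.06 on the log2 scale.

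**Figure D3:**
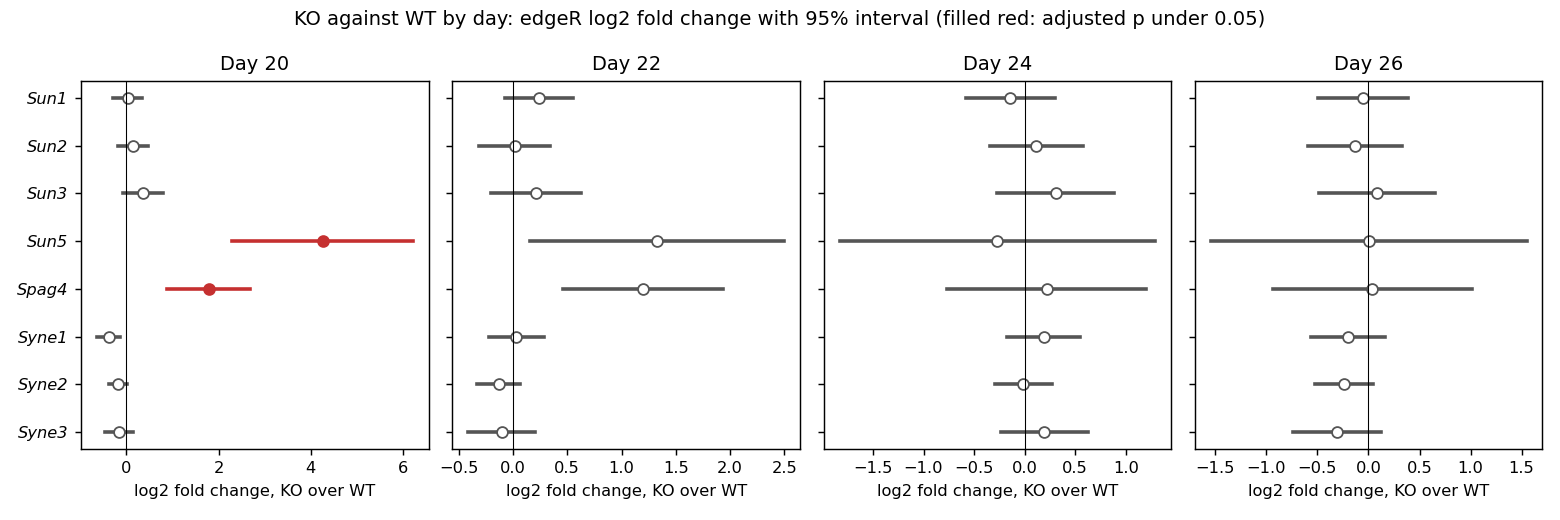
KO against WT at each day for the 8 members as edgeR log2 fold change (points) with 95% intervals (lines), each panel with its own horizontal range, and adjusted p under 0.05 filled in red. *Sun5* (4.25) and *Spag4* (1.78) pass at day 20 and no member passes at the other days.

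The other members did not pass the test at day 20. *Sun3* stood at 13.2, 11.9, 7.93 and 12.4 CPM in KO, which overlapped with WT, and differed by 0.36 ± 0.21 on the log2 scale (adjusted p = 0.539). *Sun1* and *Sun2* differed by 0.03 ± 0.15 and 0.13 ± 0.16 (adjusted p = 0.975 and 0.823). Without WT_d20_2 these became 0.60 (adjusted p = 0.0809) for *Sun3*, -0.15 (adjusted p = 0.515) for *Sun1* and -0.05 (adjusted p = 0.886) for *Sun2*. *Syne1* stood at 56.4, 43.8, 52.8 and 47.6 CPM in KO, lower by 0.38 ± 0.12 on the log2 scale with an unadjusted p of 0.00515 and an adjusted p of 0.107, and the groups overlapped. Without WT_d20_2, its highest library, the difference was -0.27 (adjusted p = 0.176). *Syne2* differed by -0.19 ± 0.10 and *Syne3* by -0.15 ± 0.15 (adjusted p = 0.466 and 0.776), and without WT_d20_2 by -0.14 and -0.26 (adjusted p = 0.442 and 0.349).

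At day 22 the order of the genotypes was kept for the spermatid genes, but no member was called by edgeR, against 2.51% of all genes (1.26% higher and 1.25% lower in KO). At an unadjusted p under 0.05 the count was 2, against 14.6% of all genes. DESeq2 called 1, *Spag4*, against 4.08% of its genes, with a log2 fold change of 1.23 (adjusted p = 0.0228). The KO libraries held 10.4, 30.4, 16.2 and 12.7 CPM of *Spag4*, all above the WT libraries, as was so for 3.64% of genes, while 4.45% had all KO libraries lower. The edgeR log2 fold change was 1.20 ± 0.35 (adjusted p = 0.0779). *Sun5* stood at 6.84, 36.2, 18.7 and 11.4 CPM in KO, and 3 of the 4 lay above all WT libraries, with a log2 fold change of 1.33 ± 0.56 (adjusted p = 0.256). The second KO library was the highest for *Sun5*, *Spag4* and, at 25.5 CPM, *Sun3*. With a library left out the day-22 log2 fold change ranged from 0.75 to 1.60 for *Sun5* and from 0.79 to 1.38 for *Spag4*. *Sun3* differed by 0.22 ± 0.20 (adjusted p = 0.759) and the remaining members by -0.13 to 0.24.

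At days 24 and 26 no member passed the test between genotypes. For both days the edgeR count was 0, also at an unadjusted p under 0.05, where 5.23% and 11.5% of all genes stood, and DESeq2 called 0 members, against 0.215% and 0.827% of its genes. Of all genes, edgeR called 0.0874% at day 24 (0.0175% higher and 0.0699% lower in KO) and 0.0466% at day 26, all lower in this fit. At day 26 DESeq2 called 69 genes higher and 70 lower, and a fit of that day alone called 1236 higher and 868 lower. *Sun5* held 30.3 and 32.8 CPM in KO at day 24, within or below the WT values, and 50.2 and 60.9 CPM at day 26, on both sides of them. Its log2 fold change was -0.27 at day 24, with a 95% interval from -1.83 to 1.29, and 0.003 at day 26, with an interval from -1.54 to 1.55. *Spag4* held 42.3 and 38.5 CPM in KO at day 24 and 77.3 and 70.0 CPM at day 26, with differences of 0.22 (-0.77 to 1.20) and 0.04 (-0.93 to 1.01). *Sun3* was higher in both KO libraries than in both WT libraries at day 24 (33.0 and 28.9 CPM) and at day 26 (45.3 and 46.1 CPM), as were 22.6% and 27.8% of genes, and its differences of 0.31 ± 0.28 and 0.08 ± 0.27 did not pass the test (adjusted p = 1.0 and 0.942). The nesprin genes *Syne1* and *Syne3* lay above WT in both KO libraries at day 24, and all 3 nesprin genes lay below WT in both at day 26, where 31.1% of genes did, against 21.4% at day 24.

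Over the mean of the 4 daily differences, *Spag4* was higher in KO by 0.81 ± 0.22 on the log2 scale (adjusted p = 0.0325) and *Sun5* by 1.33 ± 0.40 (adjusted p = 0.0488), 2 of 8 members against 3.52% of all genes, while 0 were lower against 3.56% and 7.08% of genes changed in either direction. The *Sun5* call was lost with 18 of the 24 libraries left out in turn, with adjusted p up to 0.123, and the *Spag4* call with 10 of 24, with adjusted p up to 0.093. Without WT_d20_2 *Sun5* was at 1.33 (adjusted p = 0.0706), and 1 member was called. *Sun3* was at 0.24 ± 0.12 (adjusted p = 0.238) and *Syne2* at -0.14 ± 0.06 (adjusted p = 0.149). *Sun1*, *Sun2*, *Syne1* and *Syne3* lay between -0.09 and 0.03. Without WT_d20_2 the signs of *Sun1* (-0.0200, adjusted p = 0.884) and *Sun2* (-0.0049, adjusted p = 0.98) turned. Whether the KO difference itself changed over the days was tested jointly, and no member passed, while edgeR called 0.00582% of all genes. At an unadjusted p under 0.05 there were 3 members, against 9.06% of all genes, and DESeq2 called 0 members, against 1.57% of its genes. The adjusted p was 0.37 for *Sun5*, 0.518 for *Spag4* and 0.542 for *Syne1*. The larger size at day 20 than later was therefore not established by this test.

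Markers of round spermatids moved with these results. The list holds 8 genes, all of them detected in every group, and 8 of 8 were called higher in KO at day 20, with a median difference of 3.41 on the log2 scale beside 0.00 over all genes. The fit of day 20 alone called 0 genes higher in KO. The summed level of the markers at day 20 was 25.0, 9.55, 56.9 and 98.5 CPM in the 4 KO libraries and 4.48, 3.58, 3.41 and 11.2 CPM in the 4 WT libraries. Among the KO libraries, the third and the fourth were thus also the highest in these markers, and the second was the lowest and lay below the highest WT library. At day 22 the sum was 90.5, 331, 187 and 102 CPM in KO and ranged from 60.7 to 91.6 CPM in WT, with the second KO library highest. At that day edgeR called 0 of the 8 markers and DESeq2 called 1, with 8 at an unadjusted p under 0.05. By day 26 it was 580 and 638 CPM in KO and 567 and 599 CPM in WT. The plot against the markers shows the libraries of both genotypes along a shared course for *Sun5* and *Spag4*. With the round spermatid score as a covariate, *Sun5* differed at day 20 by 0.55 (adjusted p = 0.827) and *Spag4* by -0.20 (adjusted p = 0.922), and over the mean of the days by 0.0019 and 0.10. At day 20 that fit called 0 of 17170 genes higher in KO and 6 lower, against 511 and 62 without the score. The loss is therefore not particular to *Sun5* and *Spag4*. The score is the mean of these 8 markers in log2 CPM, which themselves differed between genotypes at day 20. In bulk RNA of testis, more cells of a type and more RNA per cell cannot be told apart.

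**Figure D4:**
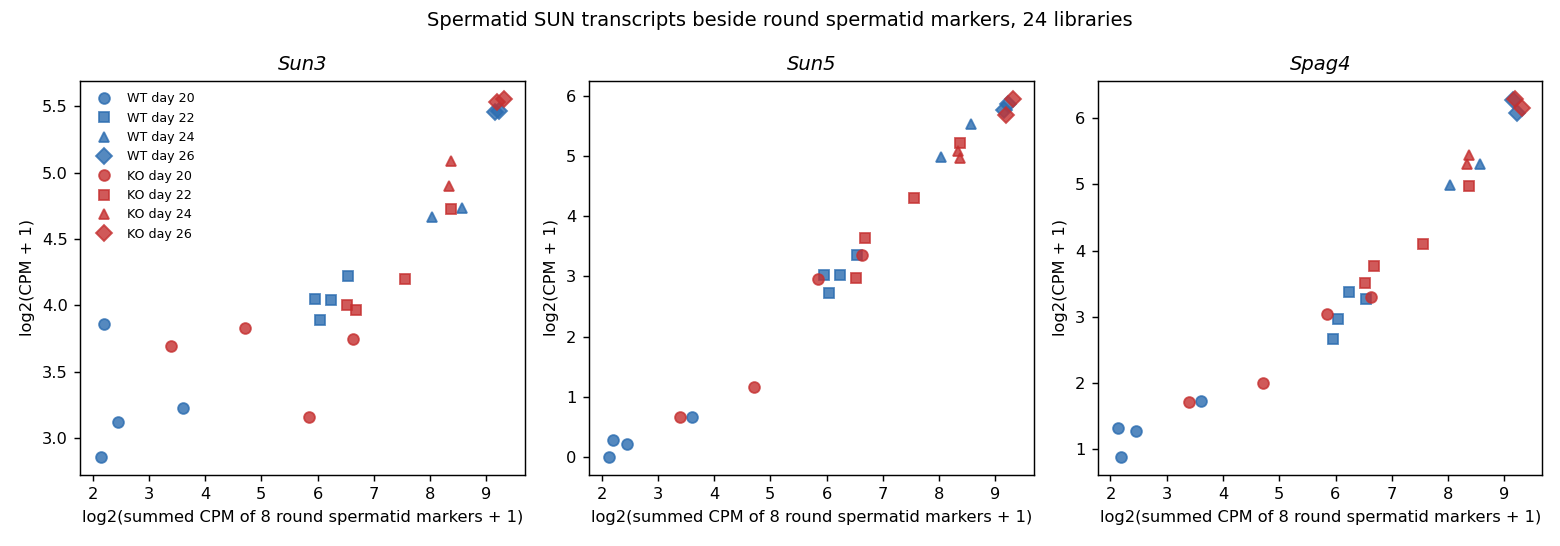
Level of *Sun3*, *Sun5* and *Spag4* (log2 of CPM + 1) against the summed level of 8 round spermatid markers (log2 of summed CPM + 1) in the 24 libraries, WT in blue and KO in red, with a symbol for each day. For *Sun5* and *Spag4* the KO libraries of day 20 reach from the WT libraries of day 20 up to those of day 22, and *Sun3* is more scattered at low marker levels.

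Elongating spermatid markers had a median difference of 3.56 on the log2 scale at day 20, with 3 of 8 genes called higher in KO by edgeR and by DESeq2. At day 22 edgeR called 4 of 8 higher and DESeq2 called 0. The list had summed levels of 168 to 241 CPM in KO and 86.8 to 175 CPM in WT at day 20. Of 8 pachytene markers edgeR called 0 at day 20 and DESeq2 called 1, with 1 at an unadjusted p under 0.05 and sums of 3646 to 4108 CPM in KO and 2830 to 4020 CPM in WT, and at this day neither tool called any of the early meiosis, spermatogonia, Sertoli and macrophage markers, of which 1, 1, 0 and 0 had an unadjusted p under 0.05. Peritubular markers were lower in KO for 2 of 5 genes over the mean of the days in edgeR and 3 were called by DESeq2, with sums at day 20 of 509 to 658 CPM in KO and 593 to 1036 CPM in WT. Endothelial markers were lower for 2 of 5 over the mean. Leydig markers had a median difference of 0.92 at day 20, with 0 of 6 called by edgeR, 1 by DESeq2 and 3 at an unadjusted p under 0.05. Their summed level at day 20 was 415, 277, 601 and 683 CPM in KO and 260 to 376 CPM in WT, again highest in the third and the fourth KO library and lowest in the second. At day 26 their median was -0.59, and over the mean of the days 1 of 6 was called higher. The part of Leydig cells in the *Sun5* and *Spag4* differences was not tested. Of 5 blood markers the globin genes (*Hbb-bs*, *Hbb-bt*, *Hba-a1*, *Hba-a2*) were at 0 in every library. The remaining marker, *Alas2*, was higher in KO by 0.74 on the log2 scale at day 20 and by 0.37 over the mean of the days. Both values had an unadjusted p under 0.05 in edgeR, and neither tool called them. The part of these cell types in the differences of the broadly expressed members was not tested.

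The genes that work beside the bridge were described by 5 lists, with gene names of the count tables. Among 9 genes of other KASH proteins and of telomere attachment in meiosis, including those of the meiotic partner of SUN1, KASH5 (*Ccdc155* in the tables), none was called between genotypes at any day or over the mean by edgeR or DESeq2, and their median difference at day 20 was 0.05 on the log2 scale. At an unadjusted p under 0.05 the count was 0 at days 20, 22 and 24 and over the mean, and 2 at day 26. Among 18 genes of the lamina and nuclear membrane edgeR called 0 in each of these contrasts, with 1, 3, 0 and 1 at an unadjusted p under 0.05 at the 4 days and 2 over the mean, where DESeq2 called 1. Among 12 cytoskeletal partners of nesprins edgeR called 0 as well, with at most 2 at an unadjusted p under 0.05, and DESeq2 called 1 over the mean.

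The lists of spermatid structures gave more. Of 14 manchette genes 11 rose from day 20 to day 26 in WT and 12 in KO, and between genotypes *Spem1* alone was called. *Spem1*, needed for shedding the spermatid cytoplasm, ranged from 0.134 to 10.2 CPM in KO and from 0 to 0.153 CPM in WT at day 22 (adjusted p = 0.0199), with no more than 3 counts in any WT library. Of 12 genes of head-tail coupling and the spermatid nuclear envelope, where SUN5 works, 7 were called higher in KO at day 20 and none lower, with a median of 2.26, and 11 rose from day 20 to day 26 in each genotype. *Odf1*, an outer dense fibre gene of the tail, ranged from 1.90 to 20.3 CPM in KO and from 0.231 to 1.87 CPM in WT at day 20, a difference of 3.47 ± 0.71 on the log2 scale (adjusted p = 0.0114). *Oaz3*, the antizyme gene of spermatids, differed by 3.41 ± 0.76 (adjusted p = 0.0165). *Spata46*, named *1700015E13Rik* in the tables, encodes a spermatid nuclear envelope protein and differed by 3.27 ± 0.67 (adjusted p = 0.0113). The fit of day 20 alone and the fit with the round spermatid score each called 0 genes higher in KO at day 20. At day 22 edgeR and DESeq2 called 0 of the 12, with 7 at an unadjusted p under 0.05. The head-tail list therefore moved with *Sun5* and *Spag4* at day 20 and, like them, beside the round spermatid markers.

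**Figure D5:**
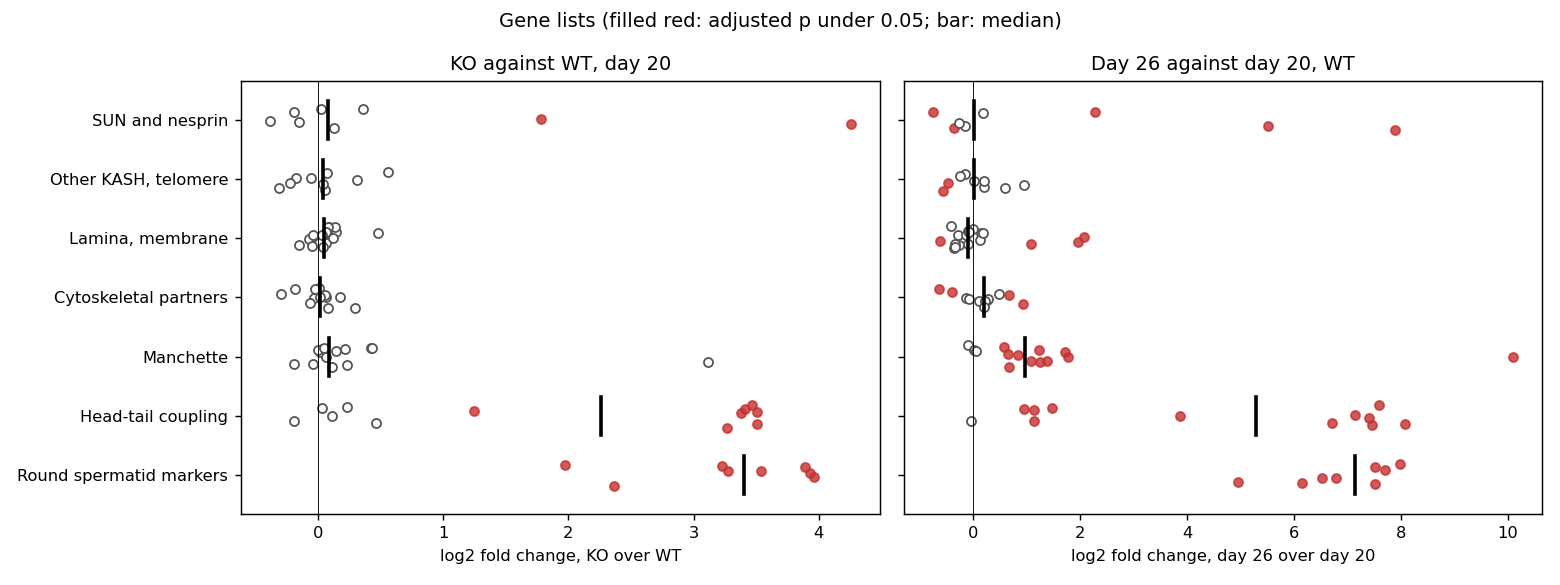
Log2 fold change of each gene of the members, of 5 neighbouring lists and of the round spermatid markers, for KO against WT at day 20 (left) and day 26 against day 20 in WT (right), with genes at an adjusted p under 0.05 filled in red and bars at list medians. At day 20 red points are confined, among these lists, to *Sun5* and *Spag4*, 7 head-tail coupling genes and the 8 round spermatid markers.

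Likeness across the 24 libraries was described by Pearson's r of log2 CPM, whose points share the 4 ages and the cell make-up of the testis. *Sun5* and *Spag4* were closest to each other among the members (r = 0.96), followed by *Sun3* with *Spag4* (r = 0.90) and with *Sun5* (r = 0.86) and by *Syne1* with *Syne2* (r = 0.82). *Sun5* ran against *Syne1* (r = -0.74), and *Sun1* and *Sun2* had r = 0.44. Of all genes, those most like *Sun5* were *Fer1l5*, *Catsper4* and *Pdilt* (r = 0.996 to 0.995), and 887 genes had r over 0.9 with it. For *Spag4* they were *Paqr9*, *2610318N02Rik* and *Ttll10* (r = 0.994), with 1356 genes over 0.9. *Sun3* had *Zbbx*, *Ankrd60* and *Mlf1* (r = 0.983 to 0.972) and 685 genes over 0.9. The broadly expressed members had few such genes: 14 for *Sun1*, led by *Sipa1l2* (r = 0.949), 5 for *Sun2*, led by *Rnf31* (r = 0.931), 1 for *Syne1* (*Rabep1*, r = 0.901), 1 for *Syne2* (*Macf1*, r = 0.910) and 0 for *Syne3*, whose closest was *Ssh1* (r = 0.850).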

How the data were processed

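Ribosome-depleted, strand-specific RNA was sequenced in 24 libraries, grouped by genotype and day as labelled. Titles and tissue labels give testis and the methods harvested testes, while the labelled extraction text names a purification of spermatogenic cells. Sertoli, Leydig, peritubular, endothelial and macrophage markers were detected in every group. For day 20 the methods of the study count fewer libraries than are labelled, and all were used. The authors aligned read pairs to mm10 with STAR 2.7.11b and counted them with HTSeq 2.0.5 in exons by strand, dropping pairs with several alignments. The authors deposited unnormalized counts, 1 table per library, by gene symbol. The version of their gene models was not given in the sources used here. The tallies of unassigned pairs entered neither library sizes nor tests, and pairs outside genes made up 45.1 to 58.5% of a table.

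Counts were fitted with edgeR 4.0.16 (R 4.3.3): TMM scaling, filterByExpr with a minimum count of 10, 1 quasi-likelihood fit of 8 groups over 24 libraries, and Benjamini-Hochberg adjustment over 17170 genes. A log2 CPM has a prior count of 2, and a level per kb uses the GENCODE M21 exon union. A level of 3 counts, the floor for a count of 0, was 0.153 to 0.316 CPM, and covers counting error only. The fit was tested on simulated data. Alternatives were the size factors of DESeq2, no filter, DESeq2 1.42.0, the replicate number as a block, the round spermatid score as a covariate, each day alone, and each library left out. Replicates of a group differed by more than sampling noise. Named genes were the members, up to 3 genes called over the mean of the days and up to 2 called at 1 day in each neighbouring list, and the 3 genes most like each member. The members and lists were chosen with earlier results of these data known.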

Additional observations from a re-analysis of the deposited data

Results flagged for a closer look

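*Syne1* and *Syne3* had KO libraries on opposite sides of WT at the last days. At day 24 both KO libraries lay above both WT libraries, with log2 fold changes of 0.1864 for *Syne1* and 0.1948 for *Syne3*, and at day 26 both lay below, with -0.1976 and -0.308. KO libraries all lay above WT for 22.6% of genes at day 24 and all below for 31.1% at day 26. The difference between days 24 and 26 was not tested by itself, and the joint test over the 4 days of edgeR gave an adjusted p of 0.542 for *Syne1* and 0.922 for *Syne3*. Among 32 combinations of a member and a group of 4 libraries, 0 had an end library whose gap to its nearest neighbour in log2 CPM passed Dixon's 95% limit as a share of the group's range, which chance passes in about 1 in 20 groups.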

How the results depend on the processing

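Leaving the 24 libraries out in turn, members called ranged from 0 to 2 at day 20, 0 to 1 at day 22 and 0 to 2 over the mean of the days, and from 4 to 5 in WT and 3 to 7 in KO for day 26 against day 20. At day 22 the 1 call was *Spag4*, without the second KO library of day 20 or the first of day 22. With the round spermatid score as a covariate the counts were 0 at day 20, 0 over the mean, 0 for WT over age and 2 for KO over age. Fitting each day alone gave 0 at day 20, where *Sun5* was filtered out and 7 members were tested. Without the filter 1 was called over the mean, *Spag4*, and the call of *Sun5* was lost (1.35, adjusted p = 0.0706), and DESeq2 called 1 at day 22. Over all genes, calls at days 20, 22, 24 and 26 numbered 573, 431, 15 and 8, against 888, 737, 37 and 139 in DESeq2, 5, 69, 11 and 2104 with each day alone, and 6, 77, 32 and 29 with the covariate. Of the calls at day 20, 511 were higher and 62 lower in KO, against 0 and 5 with each day alone and 0 and 6 with the covariate, and at day 22 217 and 214, against 9 and 60 and 8 and 69. The covariate left 167 over the mean and 0 and 279 over age in WT and KO, and the joint test called 1 gene, 264 in DESeq2 and 14 with the block, which called 9 at day 24 and 5 at day 26. With a library left out, edgeR calls over all genes ranged from 151 to 780 at day 20 and from 60 to 858 at day 22. The causes of these shifts were not tested.

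Signs turned under the covariate, also in large values (*Sun5* at day 22 and over age, *Spag4* at day 20), and with a library left out in values near 0. With the covariate, *Sun1* was at -0.0884 at day 20, -0.0235 over the mean, -0.11 in WT and -0.0768 in KO over age, *Sun2* at -0.0114 at day 22, *Sun5* at -0.28 at day 22, -0.0029 at day 26, -0.13 in WT and -0.69 in KO over age, and *Spag4* at -0.20 at day 20. With a library left out, *Sun1* ranged from -0.15 to 0.13 at day 20, -0.10 to 0.000347 at day 26, -0.0200 to 0.0542 over the mean and -0.0246 to 0.26 in WT over age. *Sun2* ranged from -0.0474 to 0.27 at day 20, -0.0668 to 0.10 at day 22, -0.0292 to 0.24 at day 24 and -0.0049 to 0.0771 over the mean. *Sun5* ranged from -0.51 to 0.0406 at day 24 and -0.12 to 0.16 at day 26, *Spag4* from -0.0548 to 0.15 at day 26, *Syne1* from -0.0134 to 0.10 at day 22, *Syne2* from -0.0920 to 0.0897 at day 24 and *Syne3* from -0.19 to 0.0268 at day 22.

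Correlations of the deviations of same-numbered samples were 0.0705 to 0.41 at day 20, where 3 of 4 KO libraries were most like the WT library of their own number, -0.459 to -0.0254 at day 22, 0.39 at day 24 and 0.416 at day 26. The last days have only 2 pairs each, and since not every pair at days 20 and 22 was over 0.1 the numbers were not taken to pair the samples. With the replicate number as a block the counts were 2 at day 20, 0 at day 22, 2 over the mean, 5 in WT and 6 in KO over age, where *Syne3* was added at -0.41 (adjusted p = 0.0222), and *Sun5* at day 26 was -0.0033.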
